A study of Mus musculus with 22 samples.

Results

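Intron DNA methylation was compared between mammary tumors of PyMT mice and mammary glands of FVB mice, with the first intron of a gene set against its later introns. A position was the cytosine of an autosomal CpG on 1 strand, covered by at least 10 reads in all 22 samples. It was used when it lay inside an intron of a curated protein-coding RefSeq transcript, in no exon and more than 2 kb from every curated transcription start site (TSS). An intron entered with 3 or more such positions and was called first or later by its place in the transcript of its gene with the longest genomic span. The rule gave 14829 introns of 7219 genes, of which 2700 were first introns and 12129 were later introns, among 62185 regions of every kind (introns, promoters, exons outside promoters and 10 kb tiles of the rest). These introns held 125273 of the 1115690 autosomal positions covered in all samples. All of them entered the tests, with no filter on low values.

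The PyMT samples were mammary tissue of F1 females heterozygous for the MMTV-PyVT transgene, bred from transgenic males and FVB females, and the controls were FVB females of the same age without the transgene. The MMTV promoter drives the polyoma middle T antigen mainly in the mammary epithelium, and the DNA came from bulk tissue. PyMT tissue at week 6 was hyperplasia (2 mice), at week 8 adenoma/MIN (mammary intraepithelial neoplasia, 3 mice), at week 10 early carcinoma (3 mice) and at week 12 late carcinoma (2 mice), and FVB glands were taken at each of these weeks (3 mice each). These are the tumor stages in the sample labels, which also give every PyMT sample, hyperplasia included, the disease state carcinoma, and no histology of the single mice was used here. The study took 3 PyMT mice and 3 controls at each week and removed 2 outlier samples, which it did not name. Coverage, methylation percentage and principal components entered that choice, so the spread and overlap given here are those of the samples kept. By their replicate numbers, the samples here lack PyMT week 6 replicate 3 and PyMT week 12 replicate 2, and no FVB sample. Since the tissue was bulk, a shift in the mix of cell types and a change within cells cannot be told apart in any value given here. ERRBS (enhanced reduced representation bisulfite sequencing) reads methylation at CpG near MspI sites, so an intron was seen only where such fragments lay.

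Introns are spliced out of the transcript, but they hold much of a gene's regulatory DNA. The first intron lies next to the promoter, and the unmethylated zone of an active promoter often reaches into it, while the bodies of transcribed genes are usually methylated. Enhancers, which are often partly unmethylated in the cell types that use them, lie in introns of both classes.

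To show what the measurements rest on, the reference sequence of 7 intron stretches was read from the RefSeq mouse genome of build mm10 (GRCm38), printed 5′ to 3′ on the plus strand. They are from the introns with the largest differences in each class and direction, and the CpG in capitals are those covered in all samples. The Itpka stretch is chr2:119744701-119744851 and the Podxl stretch chr6:31559983-31560209, in first introns that were higher in PyMT. The Galm stretch is chr17:80129652-80129924 and the Prr5 stretch chr15:84669981-84670257, in first introns that were lower in PyMT. The Myh14 stretch is chr7:44638850-44638940, in a later intron that was higher. The Prdm1 stretch is chr10:44447083-44447207 and the Btrc stretch chr19:45450712-45450879, in later introns that were lower. Podxl, Myh14 and Prdm1 are genes of the minus strand and the others are genes of the plus strand.
Itpka intron 1: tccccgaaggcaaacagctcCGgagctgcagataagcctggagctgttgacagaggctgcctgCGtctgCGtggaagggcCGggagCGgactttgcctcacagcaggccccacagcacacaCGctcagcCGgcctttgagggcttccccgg
Podxl intron 1: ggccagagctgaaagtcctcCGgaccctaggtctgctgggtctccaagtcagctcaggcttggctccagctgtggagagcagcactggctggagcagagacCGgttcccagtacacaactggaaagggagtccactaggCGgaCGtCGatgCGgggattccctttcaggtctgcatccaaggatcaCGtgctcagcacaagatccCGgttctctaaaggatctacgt
Galm intron 1: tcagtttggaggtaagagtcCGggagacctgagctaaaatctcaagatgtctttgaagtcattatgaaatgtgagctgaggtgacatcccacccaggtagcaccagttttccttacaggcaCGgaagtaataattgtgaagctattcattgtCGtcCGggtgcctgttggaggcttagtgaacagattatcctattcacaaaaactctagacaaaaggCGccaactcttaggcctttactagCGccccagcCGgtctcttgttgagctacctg
Prr5 intron 1: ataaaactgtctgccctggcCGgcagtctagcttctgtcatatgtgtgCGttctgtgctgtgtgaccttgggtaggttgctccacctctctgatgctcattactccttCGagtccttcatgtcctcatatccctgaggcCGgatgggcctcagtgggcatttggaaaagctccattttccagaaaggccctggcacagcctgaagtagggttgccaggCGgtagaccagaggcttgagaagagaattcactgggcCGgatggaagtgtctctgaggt
Myh14 intron 14: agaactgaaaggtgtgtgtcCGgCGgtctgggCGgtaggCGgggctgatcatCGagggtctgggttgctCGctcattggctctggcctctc
Prdm1 intron 3: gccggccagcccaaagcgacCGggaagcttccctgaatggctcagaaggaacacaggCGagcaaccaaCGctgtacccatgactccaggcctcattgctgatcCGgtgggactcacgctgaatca
Btrc intron 4: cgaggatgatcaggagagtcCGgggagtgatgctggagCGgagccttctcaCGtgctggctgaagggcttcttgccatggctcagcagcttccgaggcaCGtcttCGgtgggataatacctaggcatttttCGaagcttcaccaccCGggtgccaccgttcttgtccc

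Within a stretch the covered CpG moved in the same direction. In the Prdm1 stretch the 6 positions on 4 CpG had 78.4% to 87.4% methylation on average in FVB mice and 15.6% to 24.4% in PyMT mice. In the Btrc stretch the 7 positions fell from 87.7% to 96.5% in FVB to 22.4% to 58.2% in PyMT, with the highest PyMT value at the CpG starting at base 39 (58.2% ± 18.2, SD over 10 mice). One position of the Itpka stretch was apart from the others. The plus strand cytosine of the CpG starting at base 130 read 0.694% ± 2.41 in FVB and 0.588% ± 1.86 in PyMT, while the minus strand cytosine of the same CpG read 10.7% ± 6.54 and 49.0% ± 13.6. Among the 16228 CpG of the introns that were covered on both strands, 307 (1.89%) had 1 strand under 5% in every mouse and the other over 20% on average, and the median difference between the strands was 1.99 points in FVB.

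Each sample held 1283192 to 1401799 autosomal positions at a mean coverage of 60.3 to 79.97 reads. Mitochondrial cytosines, which should be nearly unmethylated, read 0.171% to 0.276% methylated. Over the introns each mouse correlated with the mean of the other mice of its strain at 0.967 to 0.989. The lowest was FVB week 8 replicate 2, which also lay farthest from its strain (6.26 points root mean square, against 3.80 to 5.55 for the other samples). No pair of samples of a group agreed within sampling noise (mean chi-square per position 1.91 to 3.85, where noise alone gives about 1), so all 22 were counted as separate samples. Nothing in the labels says more of how the mice were related, and the p-values measure the spread between these mice.

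First introns were less methylated than later introns in every mouse, and both classes were lower in PyMT than in FVB. The mean over first introns was 62.4% ± 0.468 in FVB (SD, n = 12, lowest 61.6%, median 62.5%, highest 62.9%) and 58.5% ± 0.549 in PyMT (n = 10, lowest 57.9%, median 58.4%, highest 59.6%). The mean over later introns was 71.8% ± 0.380 in FVB (71.1%, 71.9% and 72.2%) and 68.6% ± 0.569 in PyMT (67.9%, 68.4% and 69.7%). The strains did not overlap in either class. The PyMT minus FVB difference was −3.81 points in first introns and −3.18 points in later introns. The first minus later difference was −9.41 points ± 0.126 in FVB and −10.03 points ± 0.111 in PyMT, again without overlap. A mean over chosen introns is given as a description and has no p-value. For comparison, the difference was −0.491 points over promoters, −2.77 over exons and −5.63 over the tiles of the rest.

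**Figure D1:**
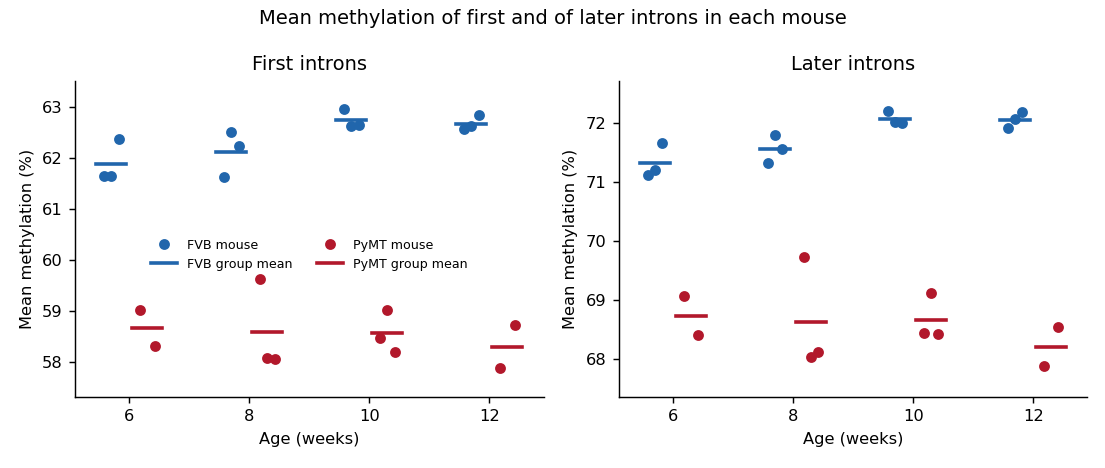
Mean methylation over the 2700 first introns (left) and the 12129 later introns (right) in each mouse, in percent, by age in weeks; each point is 1 mouse and each bar the group mean, and the axes do not start at 0. All PyMT mice (57.9% to 59.6% and 67.9% to 69.7%) lie below all FVB mice (61.6% to 62.9% and 71.1% to 72.2%).

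The PyMT minus FVB difference of first introns was −3.22 points in hyperplasia, −3.53 in adenoma/MIN, −4.17 in early carcinoma and −4.36 in late carcinoma. For later introns the same values were −2.60, −2.94, −3.41 and −3.85 points. For first introns the PyMT means were 58.7% ± 0.496 at week 6 and 58.3% ± 0.601 at week 12, within the spread of the mice, and the FVB means were 61.9% ± 0.418 and 62.7% ± 0.145. The highest PyMT mouse in both classes was replicate 1 of week 8, at 59.6% and 69.7%.

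Intron by intron, losses outnumbered gains in both classes. Over all weeks (limma, strain and week in the model, a Benjamini-Hochberg adjusted p under 0.01 and a difference of at least 10 points), 628 first introns were lower in PyMT (23.3%) and 2418 later introns (19.9%), where regions of every kind gave 18.5%. Higher methylation was called in 210 first introns (7.78%) and in 939 later introns (7.74%), where regions of every kind gave 5.38%. The share of gains was thus nearly the same in the classes and the share of losses was larger in first introns, a difference between the classes that was not tested. The median difference was −2.49 points for first introns and −1.30 for later introns, against −0.924 for all regions. Losses of 20 points or more were found in 208 first introns (7.70%) and 911 later introns (7.51%), and gains of that size in 64 (2.37%) and 269 (2.22%), where regions of every kind gave 6.61% and 1.60%. In 419 of the first introns called lower and 1441 of the later introns, every PyMT mouse was below every FVB mouse (66.7% and 59.6% of the losses, where regions of every kind gave 56.5%). In 115 and 450 of those called higher every PyMT mouse was above (54.8% and 47.9% of the gains, against 45.4%). Another 750 first and 2635 later introns passed the adjusted p but differed by less than 10 points. Such regions were not counted over every kind, so these 2 counts do not set introns apart.

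The largest gains in first introns were at Itpka, Podxl, Dchs1, Tead3, Dnmbp and Coro1c. The introns with the largest gains and losses were taken from those with 6 or more positions in which the strains did not overlap, and a difference is that of the model with its standard error. Itpka, which encodes an inositol trisphosphate 3-kinase, had 13 positions in intron 1 (chr2:119742862-119749189), 2.45 kb from the TSS on average and so just past the 2 kb limit. Its methylation was 12.3% in the lowest, 19.1% in the median and 25.9% in the highest FVB mouse, and 40.9%, 56.9% and 64.3% in PyMT, a gain of 37.9 points ± 2.51 (adjusted p = 2.51e-10, limma). Podxl encodes podocalyxin, a sialomucin of the cell surface, and its intron 1 (chr6:31529037-31563578) had 24.1%, 36.2% and 43.5% in FVB and 68.9%, 70.7% and 79.6% in PyMT. Dchs1, a large protocadherin that binds Fat4, had 9.10%, 15.8% and 28.1% in intron 1 (chr7:105773326-105787358) in FVB and 42.8%, 55.3% and 61.9% in PyMT. In these 3 genes every PyMT mouse was above every FVB mouse, as the choice of introns requires. Tead3, a DNA-binding partner of YAP and TAZ in the Hippo pathway, had 12.7%, 17.5% and 29.8% in FVB and 42.5%, 54.6% and 67.4% in PyMT in intron 1 (chr17:28341601-28350608). Dnmbp, an exchange factor for Cdc42, had 30.1%, 37.6% and 48.6% in FVB and 57.9%, 70.9% and 76.1% in PyMT (chr19:43912390-43940116). Coro1c, an actin-binding coronin, had the most positions of the set (29, chr5:113882158-113908610), with 45.2%, 52.1% and 60.2% in FVB and 78.8%, 81.0% and 87.6% in PyMT. Across the 6 the gains ran from 29.2 to 37.9 points.

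The 6 largest losses in first introns chosen in this way were deeper than the gains, from 43.6 to 54.3 points. Siglec15, a sialic acid binding lectin, had 69.4%, 79.96% and 83.6% in FVB and 19.5%, 24.3% and 31.5% in PyMT in intron 1 (chr18:78049290-78057216), a difference of −54.3 points ± 1.87 (adjusted p = 2.26e-13, limma). Galm, the galactose mutarotase, had 67.8%, 83.8% and 95.7% in FVB and 21.4%, 33.0% and 40.9% in PyMT (chr17:80127906-80138012, 2.35 kb from the TSS on average). Prr5, which encodes a subunit of mTOR complex 2, had 65.8%, 72.6% and 79.2% in FVB and 18.4%, 28.6% and 41.7% in PyMT (chr15:84663262-84681199). In all 3 the highest PyMT mouse was far below the lowest FVB mouse. Ptprf, the receptor tyrosine phosphatase LAR, had 46.1%, 59.9% and 74.0% in FVB and 9.50%, 16.9% and 23.3% in PyMT (chr4:118284853-118291179). Actn4, an alpha-actinin that crosslinks actin, had the narrowest PyMT range, with 55.9%, 66.0% and 71.9% in FVB and 18.7%, 19.9% and 22.9% in PyMT (chr7:28919069-28962018). Ovol1, a zinc finger factor of epithelial differentiation, had a wide FVB range, with 42.5%, 67.3% and 76.0% in FVB and 12.98%, 20.5% and 30.4% in PyMT (chr19:5553772-5560200). The standard error of Ovol1 was 3.56 points.

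The later introns with the largest gains were in Myh14, Arhgap8, Dock9, Espn, Il1r2 and Igf1r. Intron 14 of Myh14, a nonmuscle myosin heavy chain, had 12.0%, 19.01% and 38.2% in FVB and 55.3%, 67.8% and 74.4% in PyMT (chr7:44638464-44638942), a gain of 45.8 points ± 2.87 (adjusted p = 1.24e-10, limma). Arhgap8, a GTPase-activating protein, had 21.1%, 24.3% and 31.1% in FVB and 62.1%, 70.1% and 79.4% in PyMT in intron 7. This intron lies 75.2 kb beyond the first intron of Prr5, which fell, so neighboring genes held a first intron that lost and a later intron that gained. Dock9, another exchange factor for Cdc42, had 8.26%, 18.5% and 32.5% in FVB and 53.4%, 62.5% and 68.9% in PyMT in intron 4 (chr14:121660503-121662510). The actin-bundling espin gene Espn was covered best, with 58 positions on 50 CpG in intron 13 (chr4:152123794-152128068). There FVB mice had 16.4%, 24.5% and 35.4% and PyMT mice 56.7%, 67.1% and 77.5%. Il1r2, the decoy receptor for interleukin 1, had 24.4%, 32.9% and 47.5% in FVB and 71.4%, 74.1% and 85.7% in PyMT in intron 5 (chr1:40115199-40117954). Igf1r, the receptor of insulin-like growth factor 1, gained in its last intron, intron 20 (chr7:68218537-68226019), 271 kb from the TSS, with 13.1%, 19.9% and 27.3% in FVB and 48.6%, 62.0% and 67.8% in PyMT.

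Among later introns with 6 or more positions and no overlap, the largest losses reached 61.8 points. In intron 3 of Prdm1, which encodes the repressor Blimp1, FVB mice had 72.8%, 84.0% and 89.3% and PyMT mice 11.9%, 18.9% and 39.0% (chr10:44447045-44450118), a difference of −61.8 points ± 2.95 (adjusted p = 4.76e-12, limma). Btrc, the substrate-binding subunit of a ubiquitin ligase that acts on beta-catenin, had 89.3%, 92.3% and 95.1% in FVB in intron 4 (chr19:45423241-45456532) and 16.5%, 37.9% and 44.8% in PyMT. The FVB mice of Btrc lay close together and the PyMT mice spread widely. Begain had 75.2%, 83.8% and 89.5% in FVB and 11.3%, 28.6% and 41.2% in PyMT in intron 4 (chr12:109037720-109038851). Lifr, the receptor of leukemia inhibitory factor, had 69.7%, 77.7% and 85.4% in FVB and 15.3%, 21.6% and 36.7% in PyMT in intron 14 (chr15:7182033-7184716). The elastase gene Cela1 reached the lowest PyMT level of the set in intron 6 (chr15:100675474-100681142), with 50.8%, 65.8% and 74.7% in FVB and 8.14%, 10.2% and 20.6% in PyMT. Abcb9, a lysosomal peptide transporter, had 71.1%, 81.7% and 89.4% in FVB and 17.3%, 28.8% and 37.4% in PyMT in intron 7 (chr5:124077309-124078784). The largest adjusted p of the 24 introns was 5.09e-09 (Dnmbp, limma).

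**Figure D2:**
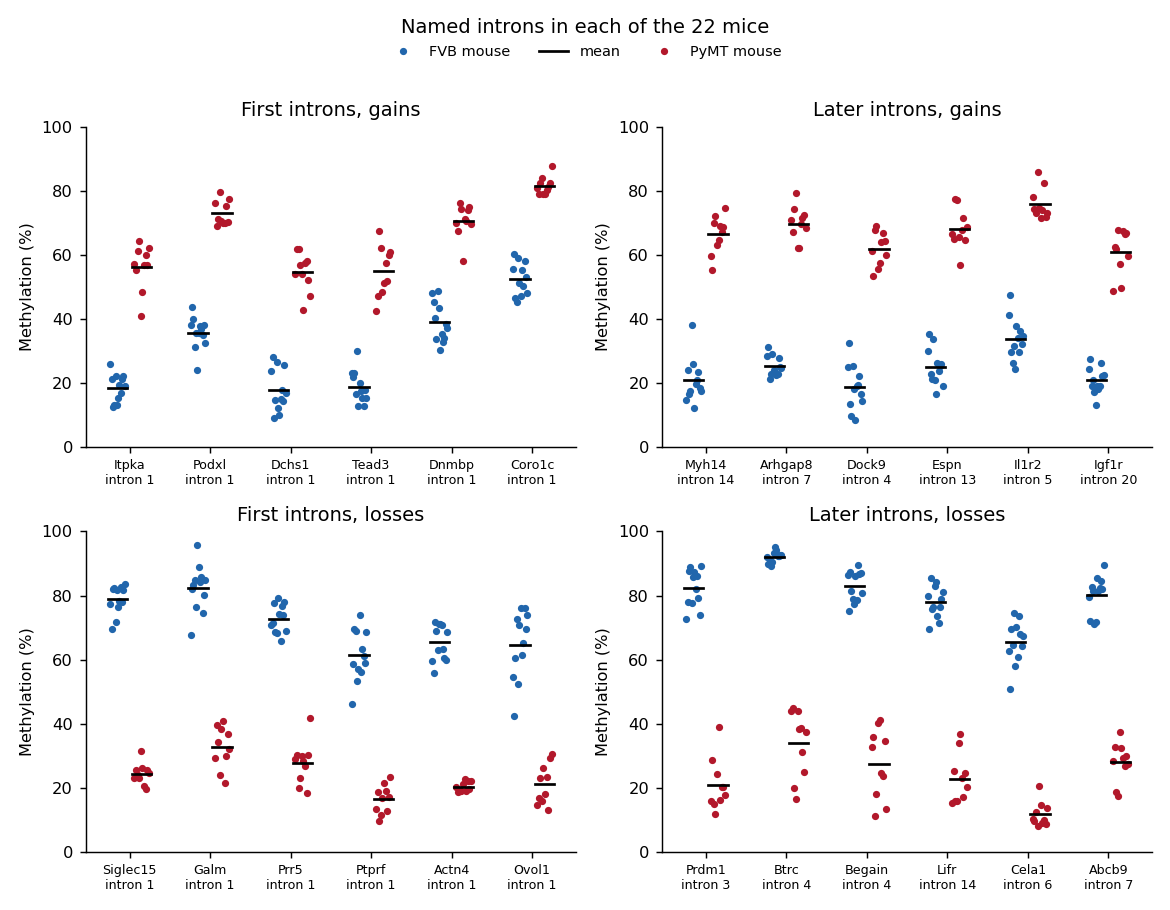
Methylation (percent, vertical axis) of the 6 first and 6 later introns with the largest gains (top) and losses (bottom) in each of the 22 mice; blue points are FVB mice, red points PyMT mice and black bars the strain means. No PyMT point falls within the FVB range, by the rule that chose these introns.

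The same differences were sought at each stage against the age-matched controls. Introns called lower numbered 1310 in hyperplasia (293 first and 1017 later), 2089 in adenoma/MIN, 2683 in early carcinoma and 2967 in late carcinoma. Regions of every kind gave 7.09%, 12.1%, 16% and 18% at weeks 6, 8, 10 and 12, while first introns gave 10.9%, 16.9%, 21.3% and 23.7% and later introns 8.38%, 13.5%, 17.4% and 19.2%. Introns called higher numbered 348, 668, 937 and 919. Here regions of every kind gave 1.42%, 3%, 4.43% and 4.31%, first introns 2.81%, 4.78%, 6.81% and 6.67%, and later introns 2.24%, 4.44%, 6.21% and 6.09%. At every stage the percent of introns called, in either class and direction, was above that of all regions, a background that includes promoters (1.94% to 3.89% lower) and tiles of the rest. The tiles were called lower in 8.999%, 16.9%, 22.9% and 26.4%, a larger share than later introns at every stage, close to first introns at week 8 and above them at weeks 10 and 12. The counts are not a measure of progression by themselves, since PyMT groups held 2 mice at weeks 6 and 12 and 3 at weeks 8 and 10. Single libraries moved these counts. At week 6 there were 507 lower and 83 higher without replicate 1 of PyMT week 6, 789 and 181 without replicate 2, and 823 and 206 without replicate 3 of FVB week 6. At week 12 there were 1946 lower and 565 higher without replicate 1 of PyMT week 12, and 548 higher without replicate 3. At week 8 there were 430 higher without replicate 3 of PyMT week 8.

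**Figure D3:**
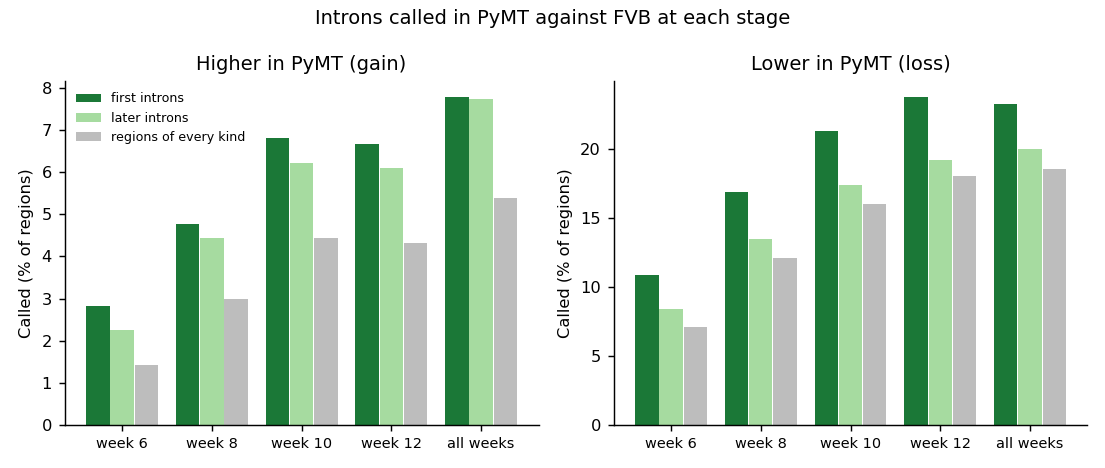
Percent of first introns, later introns and regions of every kind called higher (left) and lower (right) in PyMT than in FVB, at each week and over all weeks. First and later introns lie above the gray bars of all regions throughout, for example 23.7% and 19.2% against 18% for losses at week 12.

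Calls made at the hyperplasia stage were mostly found again in late carcinoma, in other mice. Of the 293 first introns lower at week 6, 258 (88.1%) were also called lower at week 12, where they made up 40.3% of the list, and of the 1017 later introns 911 (89.6%) were, which made up 39.1%. Among the gains, 69 of 76 first introns (90.8%) and 228 of 272 later introns (83.8%) were called at both weeks, 38.3% and 30.9% of the week 12 lists. Regions of every kind gave similar shares, with 88.9% of the week 6 losses and 83.5% of the week 6 gains called again at week 12, where they made up 35.1% and 27.4%. None was called in the opposite direction at week 12. All 4 stages called 236 first and 804 later introns lower, 30.3% and 28.3% of those lower at any stage, against 25.1% for all regions. They called 61 and 183 higher (24.9% and 17.4%, against 16.3%). The stage tests share 1 estimate of spread but no mice.

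A change of the PyMT minus FVB difference from week 6 to week 12 was called in 12 introns. It was negative in 8 (2 first and 6 later, where 0.0675% of all regions were called) and positive in 4, all later (0.108% of all regions). At an unadjusted p under 0.05 there were 349 first and 1510 later introns, 12.5% of all introns. The share of all regions at this limit was not counted, so the value does not set introns apart. In simulated data of the same layout a change of 40 points was recovered in 63.5% of regions, so smaller changes could have been missed. The largest of the 12 was at Cyp26c1, an enzyme that degrades retinoic acid. Its intron 3 (chr19:37687395-37688829) had 34.5% and 24.9% in the PyMT mice of week 6 and 60.5% and 70.3% in those of week 12. The 11 positions of this intron lay 2.07 kb from the TSS on average, just past the 2 kb limit. It had no value when positions within 5 kb of a TSS were left out. The FVB mice stayed between 18.7% and 27.1% at these weeks, and the change was 35.1 points ± 4.94 (adjusted p = 0.00195, limma). In the last intron of Gata2, a transcription factor of blood and endothelial cells (chr6:88204709-88205194), PyMT mice had 16.4% and 27.04% at week 6 and 51.6% and 51.5% at week 12, while FVB mice had 11.9% to 20.6%. Ube2e1, a ubiquitin-conjugating enzyme, had 22.2% and 25.1% at week 6 and 53.9% and 51.5% at week 12 in PyMT in intron 2 (chr14:18326431-18330949), and 5.92% to 10.8% in FVB. The changes of Gata2 and Ube2e1 were 29.9 points ± 4.81 and 28.9 points ± 4.74 (adjusted p = 0.0053 and 0.0061, limma). These introns were near or moderately above the controls in hyperplasia and far above them in late carcinoma, and Zfp608 intron 2 was the other intron with a positive change (22.9 points ± 3.97).

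Among introns with 6 or more positions, the largest negative changes were at Ntm, Vstm2l and Cdh12. Ntm, which encodes the adhesion molecule neurotrimin, had 69.4% and 66.0% in PyMT at week 6 and 43.6% and 47.3% at week 12 in intron 3 (chr9:29109522-29179021), against 80.2% to 85.6% in FVB. Vstm2l had 59.2% and 66.6%, then 44.3% and 48.6% in intron 1 (chr2:157914932-157935324). The FVB mice of Vstm2l had 69.98%, 73.4% and 71.05% at week 6 and 79.8%, 81.2% and 79.4% at week 12, so part of this change was in the controls. In intron 3 of Cdh12, a type II cadherin (chr15:21359018-21480225), PyMT mice had 73.4% and 72.6%, then 58.8% and 58.1%, against 75.7% to 83.7% in FVB. The changes were −25.3 points ± 4.02, −25.1 ± 4.33 and −19.6 ± 3.04 (Ntm, Vstm2l and Cdh12 in this order, with adjusted p = 0.0048, 0.0086 and 0.0041, limma). The other negative changes were −32.1 points ± 4.60 in Mapk10 intron 11 (3 positions), −25.6 ± 4.50 in Evc2 intron 6 (5 positions), −24.5 ± 3.72 in Nphp4 intron 7 (3 positions), −17.6 ± 2.88 in Csmd2 intron 3 and −13.9 ± 2.24 in Alk intron 1. With each of the 22 samples left out in turn, 1 to 5 introns were called positive and 1 to 19 negative. On the logit scale none was called, so these calls rest on the percent scale, and the adjusted p of Cyp26c1, Gata2, Ube2e1, Ntm, Vstm2l and Cdh12 was then 0.0191 to 0.0707 (limma). Leaving out replicate 1 of FVB week 12 left 1 positive and 1 negative call, and leaving out replicate 1 of PyMT week 8 gave 19 negative calls.

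The level of a position went with its distance from the TSS. Positions of first introns 2 to 3 kb from the TSS had 28.2% ± 0.303 in FVB and 26.6% ± 0.511 in PyMT, those at 5 to 10 kb 52.2% ± 0.463 and 48.8% ± 0.565, and those over 50 kb away 62.0% ± 0.466 and 58.0% ± 0.658. Positions of later introns at the same distances had 42.0% ± 0.524 and 41.0% ± 0.555, 60.03% ± 0.379 and 57.9% ± 0.561, and 66.3% ± 0.389 and 63.2% ± 0.525. At each of the 6 distances first introns were lower than later introns in both strains. All PyMT mice were below all FVB mice in every bin of first introns, and in later introns from 5 kb outward but not at 2 to 3 or 3 to 5 kb. The PyMT minus FVB difference was −1.53 points at 2 to 3 kb and −3.98 beyond 50 kb in first introns, and −0.935 and −3.06 in later introns, and at each distance it was larger in size in first introns.

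**Figure D4:**
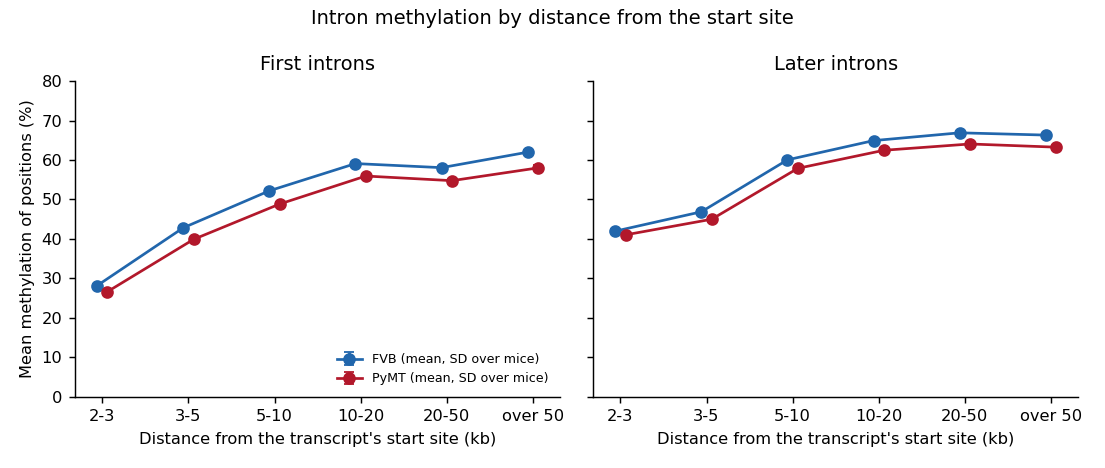
Mean methylation (percent) of the positions of first introns (left) and later introns (right) by distance from the TSS of the longest transcript, for FVB (blue) and PyMT (red) mice; points are means and bars SD over 12 and 10 mice. FVB levels are 28.2% and 42.0% at 2 to 3 kb and 62.0% and 66.3% beyond 50 kb, and the PyMT mean is below the FVB mean at each distance.

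The level in the controls and the CpG density went with the direction of change. Of the introns under 20% in FVB, 7.84% of the first (21 of 268) and 5.81% of the later were called higher in PyMT and 2.24% and 2.91% lower. At 20% to 50%, gains were most frequent, in 18.5% of first and 23.0% of later introns, beside losses in 27.9% and 28.9%. At 50% to 80%, losses were called in 29.2% of first and 28.2% of later introns. Over 80%, where 29.3% of first but 48.6% of later introns lay, losses were called in 18.8% of first and 13.9% of later introns, and gains in 1 first and 29 later introns. For losses, the classes were closer to each other within a range of control levels than in their totals, apart from the range over 80%. Since the level in the controls enters the difference itself, these shares are a description.

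Introns with few CpG lost most. With under 3 CpG in the 200 bases around a position on average, first introns went from 72.6% ± 0.558 in FVB to 66.5% ± 1.01 in PyMT and later introns from 73.1% ± 0.477 to 67.05% ± 0.996, and losses were called in 31.6% and 30.7%. With over 10 CpG, first introns had 26.5% ± 0.339 and 26.4% ± 0.549 and later introns 49.0% ± 0.261 and 48.7% ± 0.467, and losses were called in 3.70% and 5.69%. The median density over all first and all later introns was almost the same (5 and 5.10 CpG). By intron number, the second intron of a gene had 67.4% in FVB, the third 68.5% and those from the fourth on, the last left out, 73.7%, and losses were called in 21.8%, 20.7% and 19.7%. The 160 genes whose transcript had 1 intron lost in 25% of these introns. Introns with no position in a repeat (lower case in the RefSeq genome) were called higher in 10.0% of first and 8.93% of later introns, and those with every position in a repeat in 3.66% (3 of 82) and 1.29% (5 of 388). The latter had 87.1% and 85.8% in FVB, against 59.5% and 70.7% with no position in a repeat, which left less room for a gain. Losses were called in 23.8% and 19.6% of introns with no position in a repeat and in 15.9% and 18.3% of those with every position in one.

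Genes with both classes measured allowed a direct comparison of the first intron with the later introns of the same gene in the same mouse. In the 1616 such genes the first intron averaged 62.2% ± 0.467 in FVB and 58.3% ± 0.595 in PyMT, and the later introns 69.5% ± 0.367 and 66.1% ± 0.630. In 737 genes the first intron was below the later introns in every FVB mouse, and in 443 it was above them in every FVB mouse. The first minus later difference was lower in PyMT in 296 genes (18.3%) and higher in 271 (16.8%; limma on the difference per mouse, the same limits over the 1616 genes). The difference thus changed in both directions. A call marks a change of this difference and not its direction in FVB, so the introns of a called gene may have moved apart or together. Over the 296 genes the median change was −14.5 points in the first and 2.46 in the later introns, and in 226 of them the first intron had moved more. Over the 271 genes the medians were 3.77 points in the first and −13.3 in the later introns, and in 95 of them the first had moved more. In 171 and 149 of these genes the first and later introns moved in opposite directions.

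**Figure D5:**
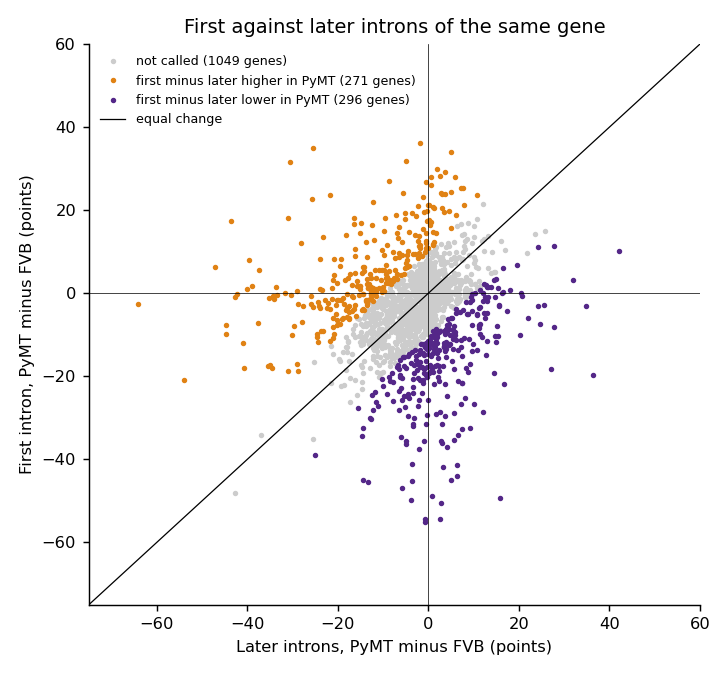
PyMT minus FVB methylation difference (points) of the first intron (vertical) against that of the later introns (horizontal) of the same gene, 1 point a gene for 1616 genes; the diagonal marks equal change. Genes called higher (271, orange) lie above the diagonal and genes called lower (296, purple) below it.

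Among the genes with the largest values, Dnmbp moved in opposite directions within 1 gene. Its first intron rose from 38.9% ± 6.19 in FVB to 70.5% ± 5.24 in PyMT, while the 31 positions of its later introns went from 68.1% ± 5.79 to 37.5% ± 2.59, a first minus later change of 62.2 points ± 3.83 (adjusted p = 1.67e-11, limma). Oacyl was like it, from 8.55% ± 3.52 to 43.6% ± 10.2 in the first and from 67.8% ± 3.29 to 42.4% ± 3.29 in a later intron. Por, the electron donor of cytochromes P450, had 31.4% ± 8.25 and 48.9% ± 5.92 in the first and 71.9% ± 9.70 and 28.5% ± 13.5 in a later intron. In Mtmr12, a myotubularin-related protein, and Bin1, a membrane-bending protein, it was the later introns that fell, from 87.4% ± 4.29 to 23.3% ± 7.29 and from 60.8% ± 8.05 to 13.7% ± 5.45. Their first introns were near the controls or a little above, at 79.5% ± 3.09 and 76.9% ± 3.24 in Mtmr12 and 77.0% ± 2.13 and 83.3% ± 3.48 in Bin1.

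At the other end the first intron fell. Qsox1, a sulfhydryl oxidase, went from 67.3% ± 7.02 to 18.04% ± 7.75 in the first intron and from 68.6% ± 7.58 to 84.4% ± 6.05 in a later one, a change of −64.3 points ± 4.56 (adjusted p = 1.26e-10, limma). Spsb4, a SOCS box protein, fell from 70.7% ± 11.1 to 16.5% ± 10.9 in the first intron, while the 55 positions of a later intron had 71.5% ± 1.33 and 73.9% ± 1.36. Aars, the alanyl-tRNA synthetase, had 88.2% ± 4.80 and 33.2% ± 6.69 in the first and 81.9% ± 4.20 and 81.2% ± 3.22 in a later intron. Siglec15, described above, had 35.5% ± 4.23 and 34.8% ± 1.99 in its later introns. In Spsb4, Aars and Siglec15 the later introns thus stayed near the controls. Some of these values rest on few positions, such as 3 in the first intron of Qsox1 and 3 in the later introns of Mtmr12, Por and Aars.

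Some genes lost or gained along many introns. Of 3330 genes with at least 2 introns measured, 2010 had a call and 253 had both a gain and a loss. Losses in 2 or more introns were found in 528 genes and gains in 2 or more in 131. Over all introns 20.5% were called lower and 7.75% higher, and up to 19 introns were measured in a gene. How many such genes these shares alone would give was not tested. The genes named in this paragraph were chosen after their values were seen. Csmd2 had losses in 13 of 16 introns measured, with differences from −22.4 to −1.89 points. The mean of its introns was 81.0%, 81.9% and 84.6% in FVB and 62.4%, 69.6% and 72.7% in PyMT. Sdk1, an adhesion molecule of the immunoglobulin family, had losses in 9 of 13, and the axon guidance gene Slit3 in 8 of 15. Cacna1i, a T-type calcium channel, had losses in 7 of 8, the largest of 32.9 points in intron 29. Gains in 4 introns were found in Trio (4 of 9, an exchange factor for small GTPases), Ltbp3 (4 of 5, a binding protein of latent TGF-beta) and Dst (4 of 17, the cytoskeletal linker dystonin). In Dst intron 98 fell by 15.5 points, and the median difference over its 17 introns was 1.17 points. The introns of Trio averaged 73.0%, 75.2% and 76.5% in FVB and 82.3%, 84.2% and 86.0% in PyMT, and every intron measured was higher in PyMT, by 1.14 to 16.2 points. Ltbp3 averaged 40.5%, 46.1% and 52.1% in FVB and 55.5%, 66.9% and 75.8% in PyMT, while its intron 3 was 27.8% ± 4.07 and 29.1% ± 8.97. In Col16a1, a collagen gene, introns 43, 44 and 48 fell by 30.1 to 33.2 points and introns 32, 54 and 63 rose by 10.8 to 19.3.

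Markers of the cell types of the gland were read from their promoters, and only the luminal epithelial ones all moved in 1 direction. The averages of the basal and of the leukocyte markers overlapped between the strains. All 11 luminal epithelial markers had less promoter methylation in PyMT, 4.51% ± 0.902 on average (3.24% to 6.08%) against 13.7% ± 1.55 in FVB (10.7% to 15.8%). The 4 basal and myoepithelial markers measured of 9 averaged 20.5% ± 1.04 and 25.3% ± 2.21 (3 lower and 1 higher), and the 5 adipocyte markers of 8 averaged 41.1% ± 2.40 and 47.6% ± 1.94 (2 lower and 3 higher). The 7 endothelial markers of 9 averaged 36.3% ± 1.28 in PyMT and 30.04% ± 1.81 in FVB (5 higher and 2 lower). The widest differences among them were in Esam, with 58.7% ± 8.28 in PyMT and 23.5% ± 5.71 in FVB, and in Pecam1 and Cdh5, with 68.9% and 52.6% in Pecam1 and, in the other direction, 31.9% and 47.8% in Cdh5. The 5 leukocyte markers of 12 averaged 41.1% ± 2.95 and 39.8% ± 1.45 (3 higher and 2 lower). Defining markers without enough positions, such as Krt14, Adipoq and Ptprc, were not analysed here. The part of these shifts in the intron differences was not tested.

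Gene lists are described by their counts beside the 18.5% and 5.38% of all regions. In the luminal epithelial list, 10 of 37 introns were lower in PyMT and 3 higher (median difference −1.78 points), and the largest losses were in Epcam intron 2 (73.8% ± 6.95 in FVB and 18.7% ± 5.85 in PyMT, 3 positions), Gata3 intron 5 (69.7% ± 8.37 and 19.7% ± 7.90, 3 positions) and Esrp1 intron 3 (63.9% ± 8.08 and 18.3% ± 5.66, 4 positions). Epcam is a cell adhesion molecule of epithelia, Gata3 a factor that maintains luminal cells and Esrp1 an epithelial splicing regulator. In the basal and myoepithelial list 6 of 27 introns fell and 3 rose (median −1.27 points), and 2 introns of the myosin light chain kinase gene Mylk moved in opposite directions, from 56.0% ± 7.53 to 21.7% ± 4.74 in intron 30 and from 53.5% ± 7.51 to 78.0% ± 5.67 in intron 22. Itgb4, the hemidesmosome integrin, rose from 51.6% ± 5.46 to 82.4% ± 5.10 in intron 17.

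The leukocyte list had the largest share of losses of the lists. In it 13 of 32 introns fell (40.6%) and 2 rose, with a median of −6.22 points, and the largest were Itgam intron 25 (87.7% ± 3.82 to 56.0% ± 9.36), Irf8 intron 5 (80.04% ± 2.56 to 54.0% ± 8.22) and Dock2 intron 1 (86.8% ± 2.69 to 60.9% ± 4.65). In the fibroblast and extracellular matrix list 26 of 88 fell (29.5%) and 7 rose (median −5.28 points), led by the collagen genes Col15a1 (intron 14, 73.4% ± 7.52 to 17.6% ± 5.31) and Col5a1 (intron 16, 76.1% ± 3.45 to 33.1% ± 7.49) and the protease gene Adamts17 (intron 12, 55.1% ± 11.0 to 20.9% ± 5.19). The endothelial list had 7 losses and 5 gains in 41 introns (median −1.67 points), among them Flt1 intron 19 (81.7% ± 5.48 to 37.7% ± 5.07), Erg intron 1 (78.0% ± 6.56 to 54.4% ± 4.38) and Vwf intron 38 (72.9% ± 6.10 to 50.6% ± 14.1). The adipocyte list had 5 losses and 3 gains in 33 introns and a median above zero (1.21 points). Acsl1 intron 1 fell from 55.6% ± 12.4 to 19.3% ± 5.87 and Cidea intron 1 from 61.8% ± 3.09 to 38.0% ± 6.64, while Acacb intron 12 rose from 44.4% ± 3.56 to 70.99% ± 5.18.

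The Wnt list had 16 losses and 5 gains in 68 introns, and it held the largest difference in size of all introns, at Axin1, a scaffold of the beta-catenin destruction complex. Intron 6 of Axin1 had 76.4%, 85.8% and 95.1% in FVB and 5.71%, 19.1% and 25.3% in PyMT at 3 positions, a difference of −69.1 points ± 3.00. Lrp5 intron 3 (89.7% ± 3.62 to 47.7% ± 13.2) and Prickle2 intron 8 (67.8% ± 4.76 to 29.4% ± 5.94) followed. Growth factor receptors and kinase signaling genes had 20 losses and 8 gains in 127 introns, with Epha2 intron 15 (79.1% ± 6.99 to 21.3% ± 3.20) and Akt2 intron 1 (42.2% ± 6.43 to 77.5% ± 8.42) beside Igf1r. Homeobox and developmental regulators had 29 losses and 13 gains in 160 introns, and Gli2 intron 8 fell from 56.9% ± 5.17 to 14.1% ± 2.58, Sox5 intron 2 from 57.5% ± 9.75 to 23.3% ± 5.28, while Meis1 intron 6 rose from 39.8% ± 5.74 to 71.5% ± 5.67.

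Genes of chromatin and of the DNA methylation machinery had 18 losses and 12 gains in 101 introns, with a median of 0.00235 points. Gains were called in 11.9% of them, in 12 of 85 later introns and none of 16 first introns. Over all introns gains were called in 7.78% of first and 7.74% of later ones, so 16 first introns are too few to compare the classes. Cbx2, a Polycomb subunit, rose from 38.3% ± 5.84 to 77.7% ± 5.198 in intron 3, while Uhrf1 and Dnmt1, which maintain methylation at replication, fell from 53.4% ± 12.0 to 17.3% ± 9.35 in intron 2 and from 49.5% ± 9.80 to 13.8% ± 5.21 in intron 1. The study chose 2 lists on these samples, so their direction is not independent evidence. Its Polycomb targets had 14 losses and 5 gains in 74 introns, including Hlx intron 3 (53.5% ± 13.2 to 13.3% ± 4.02), Csmd1 intron 31 (79.99% ± 3.61 to 56.6% ± 7.44) and Cyp26c1. Its angiogenesis list had 6 losses and 9 gains in 46 introns, including losses of Pik3c2b in intron 27 (66.8% ± 8.04 to 20.8% ± 5.12) and intron 2 (55.3% ± 7.82 to 14.3% ± 6.95) and the gain of Arhgap8.

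Promoters (2 kb on each side of the TSS) were measured for 2375 first and 10522 later introns. Their level left little room for a loss, with a median of 1.01% in FVB for first introns called lower, 0.414% for those called higher, and 1.08% and 0.442% for later introns. Among the genes of first introns called lower, the promoter differed by a median of 0.0145 points, and among those called higher by 0.00769. Of 558 first introns called lower with a promoter measured, 25 had a promoter at least 5 points higher in PyMT and 19 one at least 5 points lower. Over all 2375 first introns, called or not, the counts were 95 and 83, a similar share. For 1992 later introns called lower the counts were 96 and 96, and over all 10522 later introns 360 and 400. Across genes the intron and promoter differences had a Pearson correlation of −0.00211 for first introns and −0.0299 for later introns. Spearman correlations were −0.0412 and −0.142, and 0.1995 and 0.122 among first and later introns called lower, a description in which introns of 1 gene share a promoter.

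The rule has limits that can be read from its neighbors. In coding introns outside exons, positions 1.5 to 2 kb from a TSS, just outside the rule, had 26.7% ± 0.288 in FVB and 24.8% ± 0.405 in PyMT, and those at 2 to 2.5 kb, just inside, 34.9% ± 0.311 and 33.5% ± 0.586. Introns with 2 positions, just outside, had 75.01% ± 0.465 and 70.7% ± 0.764, and those with 3 positions 75.3% ± 0.400 and 71.6% ± 0.618. Some introns shared data: 136, of which 75 were first introns, held a position that also lay in an intron of another gene, and 79 had exactly the positions of another intron. The class hardly depended on the choice of transcript, since with the longest transcript taken by exon length 14217 of 14240 shared introns kept their class. Another start site of the same gene lay over 2 kb from the one used for 560 first introns (20.7%) and 2365 later introns (19.5%).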

How the data were processed

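Genomic DNA of 22 mammary samples (10 PyMT and 12 FVB mice) had been measured by ERRBS. The authors aligned the reads to mm10 with Bismark, whose version is not given in the sources used here, and deposited for each CpG cytosine with at least 10 reads, the strands kept apart, a coverage count and the percent of reads called methylated. Samples were grouped by the strain and age in the labels. Positions covered in all samples were assigned to introns, promoters, exons and 10 kb tiles with RefSeq annotation of the same build, and the methylation of a region was the mean percent of its positions in each mouse. Mouse values of all 62185 regions were fitted together with limma 3.58.1 (R 4.3.3, moderated with a trend), and p-values were adjusted over them by Benjamini-Hochberg. A region was called at an adjusted p under 0.01 and a difference of at least 10 points. The comparisons were strain over all weeks, strain at each week, and the change of the strain difference from week 6 to week 12. First minus later introns of a gene were fitted likewise over 1616 genes. Tables were made with Python 3.11.15, pandas 2.3.3, NumPy 2.4.6 and SciPy 1.17.1. In simulated data of 62185 regions, 200 regions at middle levels in FVB were changed by 20 points. Of these 95.5% were recovered over all weeks, and 26%, 41%, 45% and 32% at weeks 6, 8, 10 and 12, in this order. Far more regions were called in the data, which moves the adjusted p, so these shares do not give the recovery of the tests reported.

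In each class and direction the text names the 6 called introns with the largest difference among those with 6 or more positions and no overlap of the strains, at most 1 a gene. It names the 3 largest changes from week 6 to week 12 in each direction with 6 or more positions (the other changed introns were named after their values were seen), the 5 genes with the largest first minus later value in each direction, and the 3 called introns with the largest difference of each gene list. One of these genes and 1 sequence are not reported here. The members and lists were chosen with earlier results of these data known. Coverage was 60.3 to 79.97 reads a position on average, and the precision of a value is given by the spread between mice. The alternatives were pooled reads, a logit scale, 20 reads, merged strands, 6 positions, no minimum difference, a replicate block, another choice of transcript, positions of several genes left out, a 5 kb distance, a logistic test on reads, and each sample left out. The sex chromosomes were left out.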

Additional observations from a re-analysis of the deposited data

Results flagged for a closer look

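In 6 named introns the PyMT minus FVB difference at week 12 differed from that at week 6 by the interaction term of the limma model on the percent scale, which is why they are listed here. The change was 35.1 points in Cyp26c1 intron 3, 29.9 points in Gata2 intron 5 and 28.9 points in Ube2e1 intron 2. It was −25.3 points in Ntm intron 3, −25.1 points in Vstm2l intron 1 and −19.6 points in Cdh12 intron 3. Each rests on 2 PyMT mice and 3 FVB mice at either week. None was called on the logit scale (adjusted p = 0.0191 for Cyp26c1, 0.0707 for Gata2, 0.0634 for Ube2e1, 0.033 for Ntm, 0.0358 for Vstm2l and 0.0466 for Cdh12, limma). With reads pooled over an intron Vstm2l and Cdh12 were not called (adjusted p = 0.0134 and 0.0166, limma). At 20 reads Gata2 (17.6 points) and Cdh12 were not called, and with the replicate block Gata2, Ube2e1 and Vstm2l were not. Samples left out included, the call held in 29 of 31 alternatives for Cyp26c1, 21 of 32 for Gata2 and 17 of 31 for Ube2e1. It held in 22 of 32 for Ntm, 20 of 32 for Cdh12 and only 12 of 32 for Vstm2l. Over the 31 or 32 alternatives of each, samples left out included, the adjusted p ran from 0.00121 to 0.0191 for Cyp26c1, from 0.00131 to 0.0707 for Gata2, from 0.000252 to 0.0634 for Ube2e1, from 0.00098 to 0.033 for Ntm, from 0.00332 to 0.0441 for Vstm2l and from 0.00149 to 0.083 for Cdh12.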

How the results depend on the processing

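No named difference changed sign under any alternative. The logit scale and the setting with no minimum difference reused the percent differences, so their signs were fixed in advance. Counts were compared by size alone, which cannot show a change of direction. Of 186 values recomputed under the settings other than leaving out a sample, 156 stayed within their limits. With 6 or more positions fewer introns were tested, and the calls over all weeks were 117 gains and 375 losses in first introns and 411 and 970 in later introns. The stage counts were then 220 and 693 at week 6, 388 and 1030 at week 8, 518 and 1331 at week 10, and 535 and 1531 at week 12. There were then 18 negative changes from week 6 to week 12, and 93 genes higher and 141 lower for first minus later. With no minimum difference, first introns had 447 gains and 1141 losses, later introns 1891 and 4101, and 446 genes were higher and 467 lower. The logistic test on summed reads, which takes reads as the unit, called 1067 gains and 2629 losses at week 6, 1197 gains at week 8 and 1525 gains at week 12. On the logit scale 0 positive and 0 negative changes from week 6 to week 12 were called, and beyond 5 kb from every TSS 2 positive changes were called. Apart from the fewer introns tested, the cause was not tested.

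The replicate numbers did not pair the samples (correlations of deviations of −0.0645 to 0.0738). With the replicate block, 2 positive and 4 negative changes from week 6 to week 12 were called, and no other count moved by over 1.5 times.

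Leaving out each sample in turn gave 83 to 368 gains and 507 to 1340 losses at week 6, 430 to 673 and 1461 to 2165 at week 8, 708 to 974 and 2273 to 2707 at week 10, and 548 to 958 and 1946 to 2990 at week 12. Changes from week 6 to week 12 were 1 to 5 positive and 1 to 19 negative. Over all weeks the ranges were 206 to 220 gains and 595 to 650 losses in first introns, and 907 to 980 and 2346 to 2502 in later introns. First minus later gave 268 to 278 genes higher and 288 to 304 lower. Where 1 PyMT mouse of a week was left, it is assumed to vary like the other groups. Among the named introns and genes the calls that were lost (13 of 724 values, and 56 of 1628 with a sample left out) all belonged to the 6 introns named for their change from week 6 to week 12.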

Other observations

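Calls were spread over the autosomes. The share of introns called lower ran from 17.3% on chromosome 3 to 22.4% on chromosome 11, and the share called higher from 5.71% on chromosome 17 to 11.6% on chromosome 19, where 61 of 525 introns were higher in PyMT. These shares were not tested.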
